A study of Homo sapiens with 56 samples.

Results

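MyLa cells, a cell line of cutaneous T-cell lymphoma written MY-LA in the sample labels, were cultured with cobomarsen (MRG-106), an oligonucleotide that binds and blocks miR-155, and harvested at day 8 or at day 4. The comparison set 4 arrays from cells with cobomarsen at day 8 against 4 arrays from cells with cobomarsen at day 4, chosen by their source names, out of 56 arrays in the series. The series design names day 8 as the time for downstream targets and day 4 as the time for direct targets. The 4 arrays of untreated MyLa cells at day 8 and the 4 at day 4 gave the day difference without the inhibitor. Arrays from cobomarsen-treated HuT102 and MJ cells, also lines of cutaneous T-cell lymphoma, gave the same day difference in 8 arrays of each line. Untreated wells received no oligonucleotide, and no array with a control oligonucleotide was analysed here. According to the labels, all wells were diluted 96 hours after dosing by 1 factor set from counts of the untreated wells, cobomarsen was in the passaging medium, and fresh medium was added 48 hours later. The labels do not state whether the day 4 wells were harvested before or after this dilution. Day of harvest, dilution and feeding cannot be told apart in either arm. The days are separate harvests and MyLa is 1 cell line. Nothing in the labels states that the 4 arrays of a group are separate cultures. The p-values therefore measure only the spread between arrays within groups, which may be technical. In the gene tests this spread was pooled over all 14 groups of the series, other cell lines included.

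Expression was measured as the MAS5 signal of Affymetrix arrays, a linear brightness scaled so that arrays share a trimmed mean, and differences are on the log2(signal + 16) scale, which understates changes of dim genes. Of 15 T cell markers on the array, 12 reached the median of all values (a signal of 74) in at least 1 of the groups with cobomarsen. CD3D, a subunit of the T cell receptor complex, averaged 10980 at day 8 and 13810 at day 4 with cobomarsen, and CD2, a T cell adhesion receptor, averaged 12630 and 15910 in the same order of groups. CD5, CD7 and the kinase gene LCK stayed below the median signal, as did the keratins KRT5, KRT14 and KRT1. The summed signal of the T cell markers was 34540 to 36860 in the 4 arrays at day 8 and 40930 to 44040 in the 4 at day 4. Sums of fibroblast markers (3033 to 3396 at day 8 and 3776 to 4843 at day 4, mostly COL3A1 and COL1A1) and of myeloid markers (391 to 483 at day 8 and 486 to 555 at day 4) were also lower at day 8 without overlap, with 3 of 6 fibroblast and 2 of 5 myeloid markers at or above the median. The sums of the B cell, NK cell and erythroid markers overlapped between the days. The part of these sums in the gene results was not tested. By its label MyLa is 1 cell line, so the sums describe expression of marker genes and do not count cell types. In bulk RNA, fewer cells expressing a gene and less RNA per cell cannot be told apart.

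miR-155 is a microRNA made from the MIR155HG transcript, abundant in activated lymphocytes and in several lymphomas. A microRNA guides repression of messenger RNAs mainly through pairing of its seed, bases 2 to 8 from the 5′ end, with sites in their 3′ untranslated regions, so that an inhibitor relieves its targets directly and changes other genes later. The mature sequence is shown because its seed defines the targets that the inhibitor addresses, with the seed in capitals. It is RefSeq's entry on GRCh38.p14, chr21:25573983-25574006, plus strand.
hsa-miR-155-5p: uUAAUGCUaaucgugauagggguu

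MyLa cells with cobomarsen expressed hypoxia response genes, metallothioneins and several FOXO targets, chemokines and cytokines less at day 8 than at day 4. Expression of DNA replication, ribosome biogenesis and amino acid transport genes was higher at day 8. Of 11074 genes tested, 1893 (17.1%) were higher and 1466 (13.2%) lower at day 8, together 30.3%, at an adjusted p under 0.05 in limma with Benjamini-Hochberg adjustment. Centring every array on its median gave 1563 higher and 1609 lower, so the balance of directions, and with it the background shares of higher and lower genes, depended on the scaling. The values of the groups did not overlap in 29.4% of the genes tested. Most changes were small. A total of 146 genes, 1.32%, were called with at least a 2-fold difference, and of these 37 were higher and 109 lower. The median log2 difference over all genes tested was -0.005.

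Untreated MyLa cells also differed between the days, in fewer genes. Of 11043 genes tested, 739 (6.69%) were higher and 718 (6.5%) lower at day 8, together 13.2%, with a median log2 difference of -0.008. With arrays centred on the median, 833 were higher and 557 lower. The treated and untreated comparisons share no array. Among 10716 genes tested in both arms and in the comparison between them, 283 were higher in both, which is 15.1% of those higher with cobomarsen and 38.5% of those higher in untreated cells. A further 242 genes were lower in both, 16.6% of those lower with cobomarsen and 34.0% of those lower in untreated cells. Opposite calls were made for 81 genes higher with cobomarsen and lower in untreated cells, and for 70 the other way round. Across genes, which are not independent replicates, the log2 differences of both arms had a Pearson r of 0.165 and a Spearman rho of 0.143.

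The day difference itself differed between cobomarsen and untreated cells in 1900 of 11028 genes (17.2%), with a more positive difference under cobomarsen in 1070 (9.70%) and a more negative one in 830 (7.53%). At least a 2-fold gap between the day differences was called in 205 genes (1.86%). Centring every array on its median gave 732 more positive and 1053 more negative, so that the balance of directions depended on the scaling. The median signal of the arrays was 58.2 to 67.1 at day 8 and 60.6 to 78.7 at day 4 with cobomarsen (exact permutation test, two-sided, p = 0.0571, adjusted over 5 array measures p = 0.143). The share of probe sets under a signal of 16 was 24.9% to 26.6% at day 8 and 21.1% to 25% at day 4, with the same p-values. Pearson correlations between arrays, over genes with a mean at or above the median signal, were 0.986 to 0.989 within day 8 and 0.978 to 0.983 within day 4 with cobomarsen. The part of these array measures in the gene calls was not tested.

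**Figure D1:**
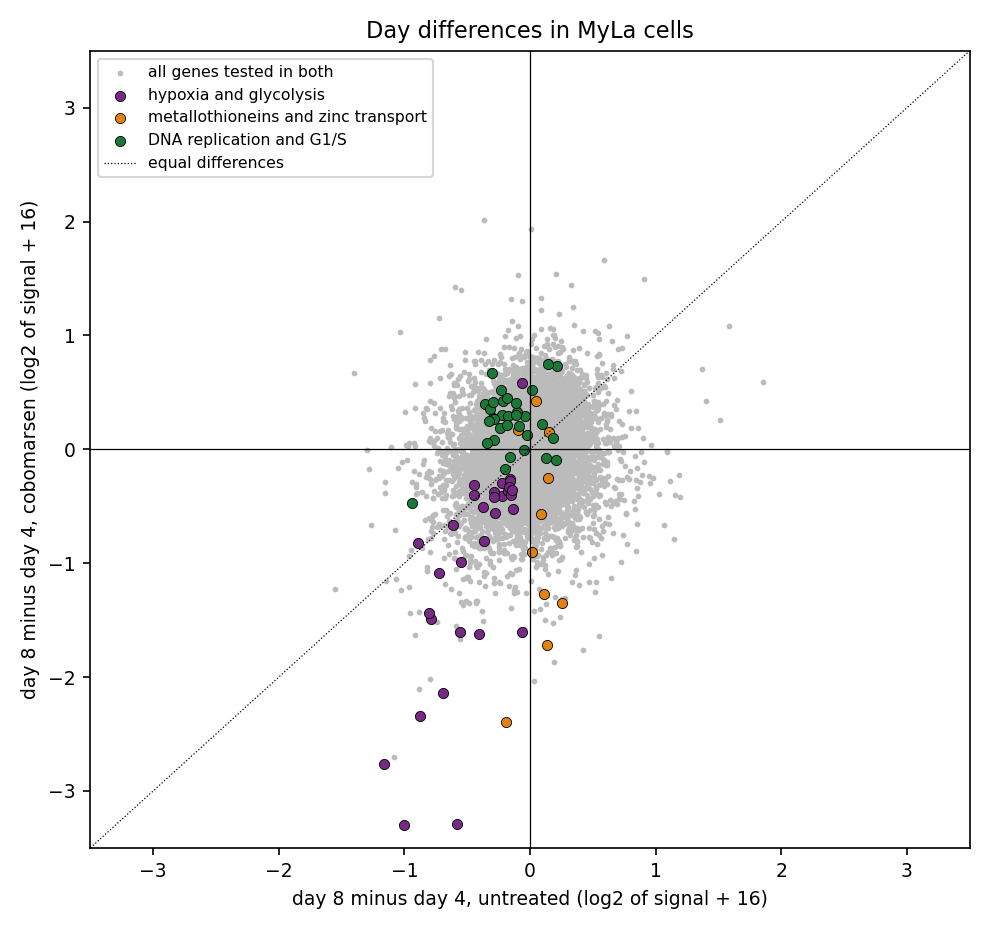
Day 8 minus day 4 in MyLa cells with cobomarsen (vertical axis) against the same difference in untreated cells (horizontal axis), both on the log2(signal + 16) scale, with 1 point per gene tested in both. Hypoxia and glycolysis genes lie low on the vertical axis, metallothioneins lie low with untreated differences near 0, and most DNA replication genes lie above the horizontal zero line and left of the vertical one.

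Genes known as miR-155 targets did not move together between the days. Of 37 members tested from a list of published targets, 5 were higher and 6 lower at day 8 with cobomarsen, and the median log2 difference was 0.001. These counts are near the shares over all genes. MYO10, a myosin that works in filopodia, had signals of 1005, 760, 956 and 846 at day 8 and of 578, 437, 472 and 371 at day 4. All arrays at day 8 lay above all at day 4, and the log2 difference was 0.93 ± 0.19 (SE, adjusted p = 0.000153). In untreated cells MYO10 stayed near background, at 91.5 ± 19.0 at day 8 and 79.8 ± 24.5 at day 4 (SD, n = 4 each). The difference between the arms was 0.75 ± 0.27 (adjusted p = 0.0468), and with log2(signal + 1) in place of log2(signal + 16) its adjusted p was 0.291. It also missed the threshold when any of 11 of the 16 arrays was left out.

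The other members called higher were CEBPB, a transcription factor of inflammation (log2 difference 0.43), the death-receptor adaptor FADD (0.41), the interferon gamma receptor chain IFNGR1 (0.39) and the TGF-beta effector SMAD2 (0.26). The members called lower were the sphingosine phosphate receptor S1PR1 (-0.49), the mTOR complex subunit RICTOR (-0.38), the transcription factor ETS1 (-0.32), the histone demethylase KDM3A (-0.30), the adaptor SDCBP (-0.24) and the transcription factor FOXO3 (-0.20). ETS1 had 3 probe sets tested, and they did not agree in direction, with 2 called higher and 1 lower. Several of these small differences rested on single arrays. SMAD2 (adjusted p = 0.0582) and ETS1 (adjusted p = 0.0714) missed the threshold without day 8 replicate 2, and S1PR1 without it (adjusted p = 0.0707) or without day 4 replicate 4 (adjusted p = 0.107). FOXO3 missed it without day 4 replicate 1 or 2, RICTOR without either of these or day 8 replicate 2, and SDCBP without any of 5 of the 8 arrays (highest adjusted p = 0.217, without day 4 replicate 4). Some members were brighter with cobomarsen than in untreated cells on both days. PICALM, a clathrin assembly protein, averaged 7701 ± 895 at day 8 and 6763 ± 448 at day 4 with cobomarsen, and 1778 ± 159 and 1917 ± 196 in untreated cells on the same days (SD, n = 4 each). Its day difference with cobomarsen missed the threshold (0.18 ± 0.11, adjusted p = 0.195), and 5 probe sets of PICALM did not agree in direction, with 1 called higher and 1 lower. CARHSP1, an RNA-binding protein gene, averaged 4160 at day 8 and 4174 at day 4 with cobomarsen, against 1472 and 1663 in untreated cells. JARID2, a cofactor of Polycomb repression, averaged 4379 and 4368 with cobomarsen, against 2076 and 2589 in untreated cells. Their day differences with cobomarsen were 0.001 ± 0.117 for CARHSP1 (adjusted p = 0.998) and 0.001 ± 0.110 for JARID2 (adjusted p = 0.998).

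The transcriptional repressor gene BACH1 averaged 983 at day 8 and 796 at day 4 with cobomarsen (log2 difference 0.29, adjusted p = 0.159), and the inositol phosphatase gene INPP5D averaged 1720 and 1854 (-0.10, adjusted p = 0.422). MYB, a transcription factor of blood progenitors, averaged 16010 ± 630 at day 8 and 14780 ± 2221 at day 4 with cobomarsen, against 5145 ± 851 and 7481 ± 286 in untreated cells (SD, n = 4 each). It was called lower at day 8 in untreated cells (log2 difference -0.55) and did not pass the test with cobomarsen (0.13, adjusted p = 0.279), and the gap between the arms was 0.68 ± 0.12 (adjusted p = 8.13e-05). A second probe set of MYB was called lower with cobomarsen. TP53INP1, a p53-induced autophagy gene, averaged 299 at day 8 and 358 at day 4 with cobomarsen, against 714 and 534 in untreated cells, with a gap of -0.64 ± 0.17 (adjusted p = 0.00500).

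The probe set annotated to MIR155 and its host transcript MIR155HG stayed bright. Its signal was 21290, 19560, 21040 and 22110 at day 8 and 21980, 23110, 21860 and 22380 at day 4 with cobomarsen. The groups overlapped and differed by -1330 (exact permutation test, two-sided, p = 0.0857, where 0.0286 is the smallest p possible with 4 against 4). After quantile normalization the difference was 1131 (exact permutation p = 0.343), so its sign depended on the scaling. Untreated cells had 24940 ± 1277 at day 8 and 23910 ± 1570 at day 4 (SD, n = 4 each), a difference of 1034 (exact permutation p = 0.400). The probe set reads the host transcript, not the mature microRNA that cobomarsen binds.

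Genes of the hypoxia response fell in a larger share than those of the other 29 lists. The response is driven by the factor HIF-1, which accumulates when oxygen is short and raises glycolytic enzymes, glucose transporters and mitophagy receptors. Of 32 members of the hypoxia and glycolysis list tested, 27 were lower and 2 higher at day 8 with cobomarsen, against background shares of 13.2% and 17.1%, and the median log2 difference was -0.54. HILPDA, a lipid droplet protein that inhibits lipolysis, had signals of 1205, 1267, 1114 and 1101 at day 8 and of 6530, 16620, 9753 and 16890 at day 4. Every array at day 8 lay below every array at day 4, and the fold was 9.77 (log2 difference -3.29 ± 0.21, adjusted p = 3.44e-17).

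PFKFB4, an enzyme that sets the level of the glycolytic activator fructose 2,6-bisphosphate, had 218, 366, 275 and 274 at day 8 and 1954, 4677, 2504 and 3045 at day 4, a log2 difference of -3.30 ± 0.23 (adjusted p = 2.91e-16). BNIP3, a mitophagy receptor, had 434, 534, 452 and 484 at day 8 and 1937, 5188, 2589 and 4702 at day 4, a log2 difference of -2.77 ± 0.20 (adjusted p = 1.46e-15). The collagen prolyl hydroxylase subunit P4HA2 (log2 difference -2.34) and the hypoxia-induced ankyrin repeat gene ANKRD37 (-2.14) fell as well. At day 4 the array with the lowest value was replicate 1 in HILPDA, PFKFB4, BNIP3, P4HA2 and ANKRD37, and replicate 3 was the next lowest in all 5. The arrays at day 8 lay close together. The members called higher were PFKFB3, a sister enzyme of PFKFB4 (log2 difference 0.58), and the stress gene NDRG1 (0.27). Both were named after their values were seen, and in each gene the groups of arrays overlapped. With only the 8 arrays compared, NDRG1 (adjusted p = 0.219) and PFKFB3 (adjusted p = 0.0503) missed the threshold, and NDRG1 also missed it when any of 6 of the 8 arrays was left out.

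Part of the fall was seen without cobomarsen. In untreated cells 17 of the 32 members were lower at day 8, against 6.5% of all genes, with a median of -0.37. HILPDA averaged 7885 ± 1813 at day 8 and 12060 ± 3835 at day 4 in untreated cells (SD, n = 4 each), which missed the threshold (log2 difference -0.58, adjusted p = 0.0580). PFKFB4 was lower at day 8 in untreated cells with a log2 difference of -1.0, and BNIP3 with -1.16. At day 4 the treated and untreated arrays of these genes overlapped, and at day 8 the treated arrays lay below all untreated ones. The day difference with cobomarsen minus that in untreated cells was -2.71 ± 0.30 for HILPDA (adjusted p = 5.41e-09), -2.30 ± 0.32 for PFKFB4 (adjusted p = 1.36e-06) and -1.61 ± 0.28 for BNIP3 (adjusted p = 5.67e-05). Over the list, this difference between arms was called negative in 10 members and positive in 2, against 7.53% and 9.7% of all genes.

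**Figure D2:**
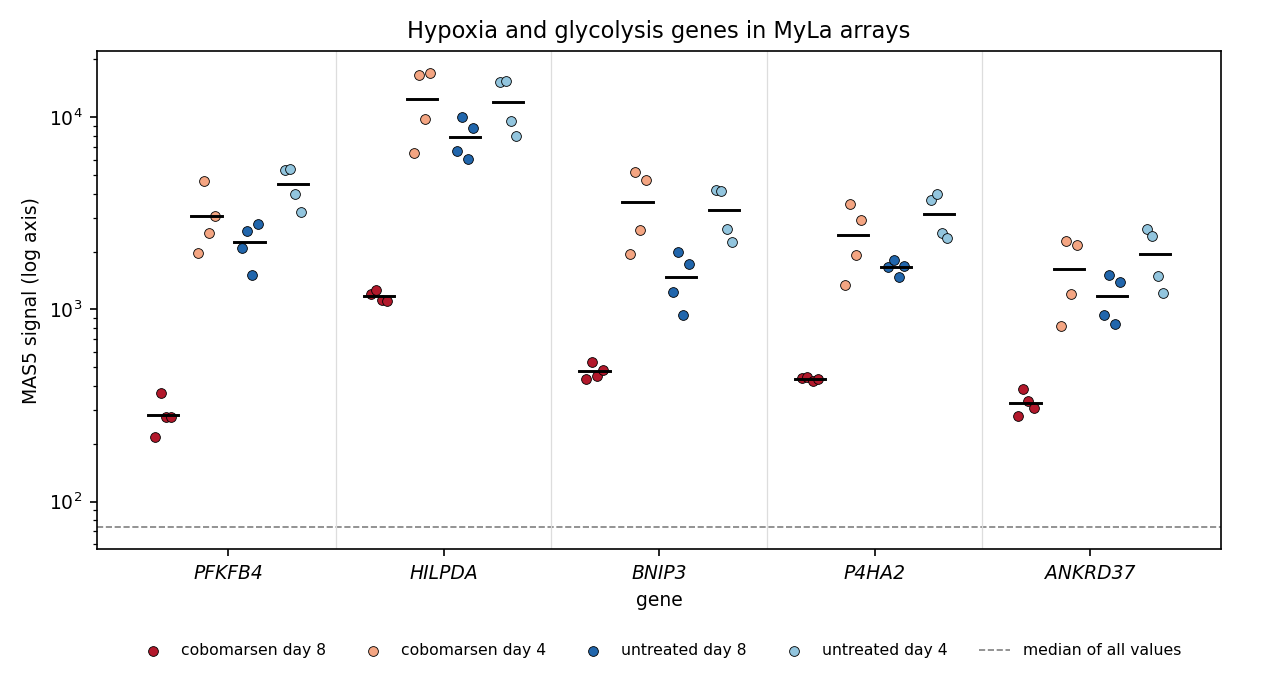
MAS5 signal (log axis) of 5 hypoxia and glycolysis genes in each MyLa array, with bars for the mean of 4 arrays and a dashed line at the median of all values (74). Cobomarsen arrays at day 8 lie below the other 3 groups in all 5 genes, HILPDA at 1101 to 1267 against 6530 to 16890 at day 4.

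Promoters of BNIP3 and ANKRD37 are shown. Both genes fell more than 4-fold, and theirs held the most matches of the windows named in this paragraph. HIF-1 is known to bind the core of the hypoxia response element. The core letters searched were ACGTG and GCGTG on both strands in the 250 bases before the transcription start, and matches are in capitals, with overlapping matches joined. The sequences are RefSeq's on GRCh38.p14, for BNIP3 chr10:131981924-131982173 on the minus strand and for ANKRD37 chr4:185396591-185396840 on the plus strand. BNIP3 held 6 matches and ANKRD37 held 3. A match was found in 43.2% of all 35116 promoters and in 68.1% of the 47 promoters of list members, and a match is no evidence of binding. PFKFB4 and P4HA2 fell more than ANKRD37, and their windows are not shown. The window of PFKFB4 held 1 match, and in that of P4HA2 these letters did not occur.
BNIP3: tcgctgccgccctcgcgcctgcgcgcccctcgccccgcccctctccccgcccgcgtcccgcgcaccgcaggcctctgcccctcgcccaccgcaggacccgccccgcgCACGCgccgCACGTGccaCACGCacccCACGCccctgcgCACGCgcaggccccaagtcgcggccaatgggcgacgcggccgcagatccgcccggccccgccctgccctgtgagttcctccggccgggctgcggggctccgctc
ANKRD37: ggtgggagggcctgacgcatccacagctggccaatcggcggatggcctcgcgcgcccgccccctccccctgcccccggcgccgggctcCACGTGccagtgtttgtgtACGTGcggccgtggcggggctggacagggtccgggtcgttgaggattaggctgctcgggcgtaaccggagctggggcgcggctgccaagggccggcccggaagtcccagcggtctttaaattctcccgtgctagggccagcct

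Metallothioneins, small proteins that bind zinc and copper, were high at day 4 with cobomarsen and lower at day 8. Of 10 members of the metallothionein and zinc transport list tested, 7 were lower and 1 higher, with a median log2 difference of -0.74. Over all genes 13.2% were lower and 17.1% higher. MT2A had 9548, 9422, 9886 and 9447 at day 8 and 22220, 24270, 21820 and 24510 at day 4, with groups far apart (log2 difference -1.27 ± 0.08, adjusted p = 6.87e-17). MT1X had 3476, 3100, 3424 and 3105 at day 8 and 10590, 12670, 9526 and 10590 at day 4 (-1.72 ± 0.10, adjusted p = 8.56e-19). MT1H had 1076, 1920, 2115 and 1561 at day 8 and 8285, 9130, 8253 and 8641 at day 4 (-2.40 ± 0.17, adjusted p = 1.46e-15). In each of the genes MT2A, MT1X and MT1H the highest array at day 8 was below the lowest at day 4.

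MT1F (log2 difference -1.35) and MT1G (-0.90) fell too. These genes are close copies of each other, and the probe sets may read more than 1 of them. The member called higher was MTF1, the zinc-sensing factor that activates metallothionein genes (0.43), named after its values were seen. It missed the threshold without day 4 replicate 3 (adjusted p = 0.0566) or day 8 replicate 4 (adjusted p = 0.0510). The metallothioneins did not pass the test in untreated cells. With limma, 0 of the 10 members were called between the days in untreated cells, against 13.2% of all genes. An unadjusted p under 0.05 was found for 2 of them. MT2A averaged 12610 ± 1582 at day 8 and 11660 ± 895 at day 4 in untreated cells (SD, n = 4 each). At day 4 the treated arrays of MT2A stood above all untreated ones, and at day 8 below all of them. The gap between the day differences was -1.38 ± 0.12 for MT2A (adjusted p = 3.04e-12), -1.85 ± 0.14 for MT1X (adjusted p = 5.88e-14) and -2.20 ± 0.25 for MT1H (adjusted p = 6.07e-09). It was called negative in 7 of 10 members, against 7.53% of all genes.

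**Figure D3:**
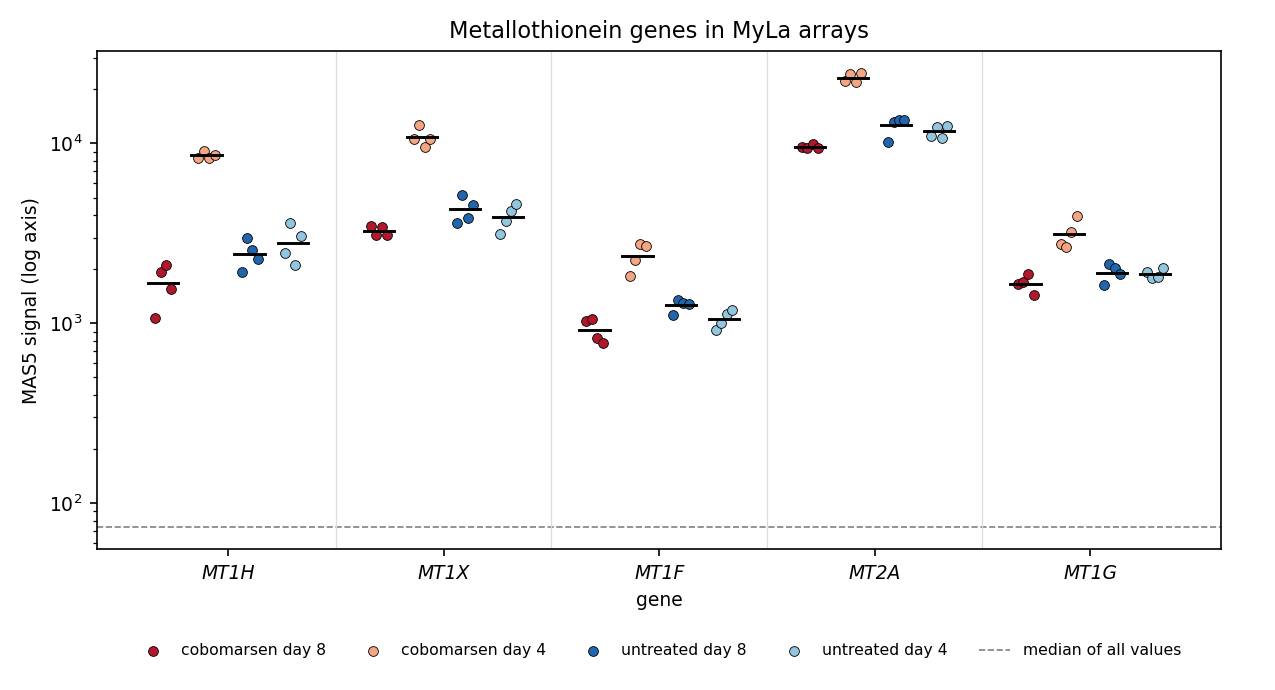
MAS5 signal (log axis) of 5 metallothionein genes in each MyLa array, with bars for the mean of 4 arrays. Cobomarsen arrays at day 4 form the highest group in all 5 genes, MT2A at 21820 to 24510 against 9422 to 9886 at day 8.

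The metallothionein promoters carry metal response elements, the sites MTF1 is known to bind, and the windows of MT1H, MT1X and MT2A are shown because these genes fell together. The core letters searched were TGCACNC and TGCGCNC on both strands, in capitals, in the 250 bases before the start. The sequences are RefSeq's on GRCh38.p14, all on the plus strand, at chr16:56669564-56669813 for MT1H, chr16:56682220-56682469 for MT1X and chr16:56608334-56608583 for MT2A. MT1H held 8 matches, MT1X 4 and MT2A 7. A match was found in 24.8% of all promoters and at least 4 matches in 0.370%. Of 7 list members with a promoter in the table, 5 had a match.
MT1H: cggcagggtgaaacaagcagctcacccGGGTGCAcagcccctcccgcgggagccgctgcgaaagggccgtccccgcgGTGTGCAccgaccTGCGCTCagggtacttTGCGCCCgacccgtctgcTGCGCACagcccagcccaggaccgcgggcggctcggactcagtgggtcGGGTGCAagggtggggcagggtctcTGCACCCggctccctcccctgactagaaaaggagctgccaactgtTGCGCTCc
MT1X: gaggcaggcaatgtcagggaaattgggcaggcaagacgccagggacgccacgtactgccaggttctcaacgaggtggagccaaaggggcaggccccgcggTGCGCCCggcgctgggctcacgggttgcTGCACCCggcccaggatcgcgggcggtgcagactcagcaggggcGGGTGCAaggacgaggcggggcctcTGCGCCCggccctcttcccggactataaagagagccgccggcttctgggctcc
MT2A: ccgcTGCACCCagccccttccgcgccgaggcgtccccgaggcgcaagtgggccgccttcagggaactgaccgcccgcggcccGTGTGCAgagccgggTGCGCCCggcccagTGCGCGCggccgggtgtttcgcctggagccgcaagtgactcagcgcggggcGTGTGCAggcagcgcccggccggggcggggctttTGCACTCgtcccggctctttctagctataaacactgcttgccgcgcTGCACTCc

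FOXO factors are transcription factors that hold cells in quiescence when growth signals are low. Most members of a list of these factors and their quiescence targets fell. Of 17 members tested, 11 were lower and 1 higher at day 8 with cobomarsen, with a median log2 difference of -0.38. In untreated cells 2 of 16 were lower and 1 higher. The shares over all genes were 13.2% lower and 17.1% higher with cobomarsen, and 6.5% and 6.69% in untreated cells. CCNG2, an atypical cyclin of resting cells, had 1051, 1079, 840 and 1119 at day 8 and 1324, 2588, 2507 and 3265 at day 4 (log2 difference -1.17 ± 0.17, adjusted p = 3.41e-07). The gap to the untreated difference was -0.76 ± 0.24 (adjusted p = 0.0198), and with only the 16 MyLa arrays its adjusted p was 0.0600. It also missed the threshold without day 4 replicate 4 (adjusted p = 0.0828) or day 8 replicate 3 (adjusted p = 0.0564) with cobomarsen. TXNIP, an inhibitor of glucose uptake (-0.76), SESN1, a brake on mTORC1 (-0.67), and PIK3IP1, an inhibitor of PI3K (-0.67), were lower as well.

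The member called higher was the factor FOXO1 itself. FOXO1 had 967, 1003, 1072 and 1116 at day 8 and 532, 641, 751 and 559 at day 4 with cobomarsen, with no overlap (log2 difference 0.74 ± 0.13, adjusted p = 1.51e-05). In untreated cells FOXO1 averaged 522 ± 164 at day 8 and 801 ± 90.0 at day 4 (SD, n = 4 each) and was called lower (-0.64 ± 0.13, adjusted p = 0.000602). The gap between the arms was 1.38 ± 0.18 (adjusted p = 4.60e-07). Among 21 targets of the tumour suppressor p53 tested, 6 were lower and 4 higher with cobomarsen, against 13.2% and 17.1% over all genes. The count of higher members lay near its share. The ribonucleotide reductase subunit RRM2B (-0.71), the RNA-binding protein gene ZMAT3 (-0.71), SESN1 and the death receptor FAS (-0.52) were lower. SESN2, which the amino acid stress response also raises, was higher (0.80).

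Genes of DNA replication moved the other way. Their products load and fire replication origins, and they are transcribed as cells pass from G1 into S phase. Of 32 members tested, 18 were higher and 1 lower at day 8 with cobomarsen, with a median log2 difference of 0.28. Over all genes 17.1% were higher and 13.2% lower. MCM10, a replication initiation factor, had 2164, 2070, 2259 and 2159 at day 8 and 1597, 1317, 1393 and 1136 at day 4 (0.67 ± 0.09, adjusted p = 3.18e-08). MCM7, a subunit of the replicative helicase, had 4330, 4887, 5254 and 4133 at day 8 and 2854, 3194, 3592 and 3252 at day 4 (0.52 ± 0.09, adjusted p = 1.18e-05). In MCM10 and MCM7 the days did not overlap. The origin licensing factor CDC6 (0.75), the cyclin CCNE2 (0.73) and the DNA polymerase subunit POLA1 (0.52) were higher too. TYMS, thymidylate synthase, was the member called lower (-0.17). It was named after its values were seen, and it moved to -0.02 after quantile normalization (adjusted p = 0.833). It also missed the threshold without day 4 replicate 4 (adjusted p = 0.0798) or day 8 replicate 1 (adjusted p = 0.0506).

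In untreated cells the replication list moved the opposite way, with 8 members lower and 1 higher at day 8 and a median of -0.18. The shares over all genes were 6.5% lower and 6.69% higher. MCM10 averaged 908 ± 28.2 at day 8 and 1126 ± 67.0 at day 4 in untreated cells (SD, n = 4 each), and was called lower (log2 difference -0.30). The gap between the day differences was 0.98 ± 0.12 for MCM10 (adjusted p = 1.11e-07), 0.76 ± 0.13 for MCM7 (adjusted p = 3.41e-05) and 0.60 ± 0.17 for CDC6 (adjusted p = 0.0117). For CDC6 the gap fell to 0.37 (adjusted p = 0.0575) without MyLa cobomarsen day 4 replicate 2, and with only the 16 MyLa arrays its adjusted p was 0.0757. Over the list the gap was called positive in 21 of 32 members and negative in 1, against 9.7% and 7.53% of all genes. Of 30 genes of mitosis and G2/M tested, 2 were higher and 6 lower with cobomarsen, against background shares of 17.1% and 13.2%. In untreated cells 0 of these 30 were higher and 10 lower, against shares of 6.69% and 6.5%. Over this list the gap was called positive in 6 members and negative in 1, against the same 9.7% and 7.53% of all genes. The mitotic activator CDC20 was higher (0.42) and the cyclin CCNB2 lower (-0.34). The transcription factor FOXM1 was called higher (0.47, adjusted p = 0.0403), and it missed the threshold when any of 5 of the 8 arrays was left out (highest adjusted p = 0.210, without day 4 replicate 4).

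Genes that build ribosomes and genes that import amino acids were higher at day 8. Of 22 ribosome biogenesis and MYC target genes tested, 14 were higher and 2 lower with cobomarsen, with a median of 0.36. In untreated cells 3 were higher. Over all genes 17.1% were higher and 13.2% lower with cobomarsen, and 6.69% were higher in untreated cells. RRP12, needed for export of pre-ribosomes, had 528, 465, 511 and 432 at day 8 and 68.9, 132, 337 and 49.2 at day 4. The groups did not overlap, although the arrays at day 4 were spread widely (log2 difference 1.94 ± 0.24, adjusted p = 2.33e-08). In untreated cells RRP12 averaged 280 ± 34.1 at day 8 and 282 ± 64.9 at day 4 (SD, n = 4 each), and the gap between the arms was 1.93 ± 0.35 (adjusted p = 7.30e-05). MRTO4, a factor that prepares the large subunit (0.75), TSR1 of small subunit assembly (0.64), the RNA polymerase I subunit POLR1A (0.62) and spermidine synthase SRM (0.54) were higher. The groups of arrays overlapped for TSR1 and POLR1A. Of the probe sets tested, 1 of 2 for MRTO4, 2 of 4 for TSR1 and 1 of 3 for POLR1A were called higher. The members called lower were NOB1 (-0.31) and FBL (-0.23), both named after their values were seen. FBL missed the threshold without day 4 replicate 4 (adjusted p = 0.140) or day 8 replicate 1 or 4. Of 27 cytosolic ribosomal proteins, 4 were lower, near the background share of 13.2%, while after quantile normalization 1 was lower and 3 were higher. RPL22 (-0.24) missed the threshold after quantile normalization (-0.10), and without day 4 replicate 2 or 4 or day 8 replicate 1.

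Of 12 amino acid transporters tested, 8 were higher with cobomarsen and in untreated cells 3 were higher and 1 lower. The shares over all genes were 17.1% higher with cobomarsen, and 6.69% higher and 6.5% lower in untreated cells. SLC7A5, the light chain of the main leucine transporter, had 2158, 2553, 2851 and 3077 at day 8 and 1734, 1304, 1645 and 870 at day 4 (0.97 ± 0.17, adjusted p = 2.20e-05). In untreated cells SLC7A5 averaged 1265 ± 213 at day 8 and 1607 ± 205 at day 4 (SD, n = 4 each), and the gap between the arms was 1.31 ± 0.25 (adjusted p = 0.000138). Its heavy chain SLC3A2 (0.80), the cystine transporter SLC7A11 (1.02) and the neutral amino acid transporters SLC1A4 (0.72) and SLC1A5 (0.66) were higher. The gap was called for SLC3A2 (0.74, adjusted p = 0.00046) and SLC1A5 (0.86, adjusted p = 0.0032). It was not called for SLC7A11 (0.475, adjusted p = 0.431) or SLC1A4 (0.38, adjusted p = 0.104). Of 27 genes of the integrated stress and unfolded protein response, 8 were higher and 6 lower, against 17.1% and 13.2% of all genes. The log2 differences of the 27 ran from -0.40 to 1.49. In untreated cells 0 were higher and 3 lower, against 6.69% and 6.5% of all genes. The higher ones with cobomarsen included the glutathione-degrading enzyme CHAC1 (1.49), asparagine synthetase ASNS (0.67) and the factor ATF5 (0.83), all targets of ATF4. The gap was called for ASNS (0.56, adjusted p = 0.0011). It was not called for CHAC1 (0.59, adjusted p = 0.51) or ATF5 (0.28, adjusted p = 0.53). CHAC1 had 186, 223, 242 and 261 at day 8 and 133, 25.1, 144 and 39.7 at day 4.

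**Figure D4:**
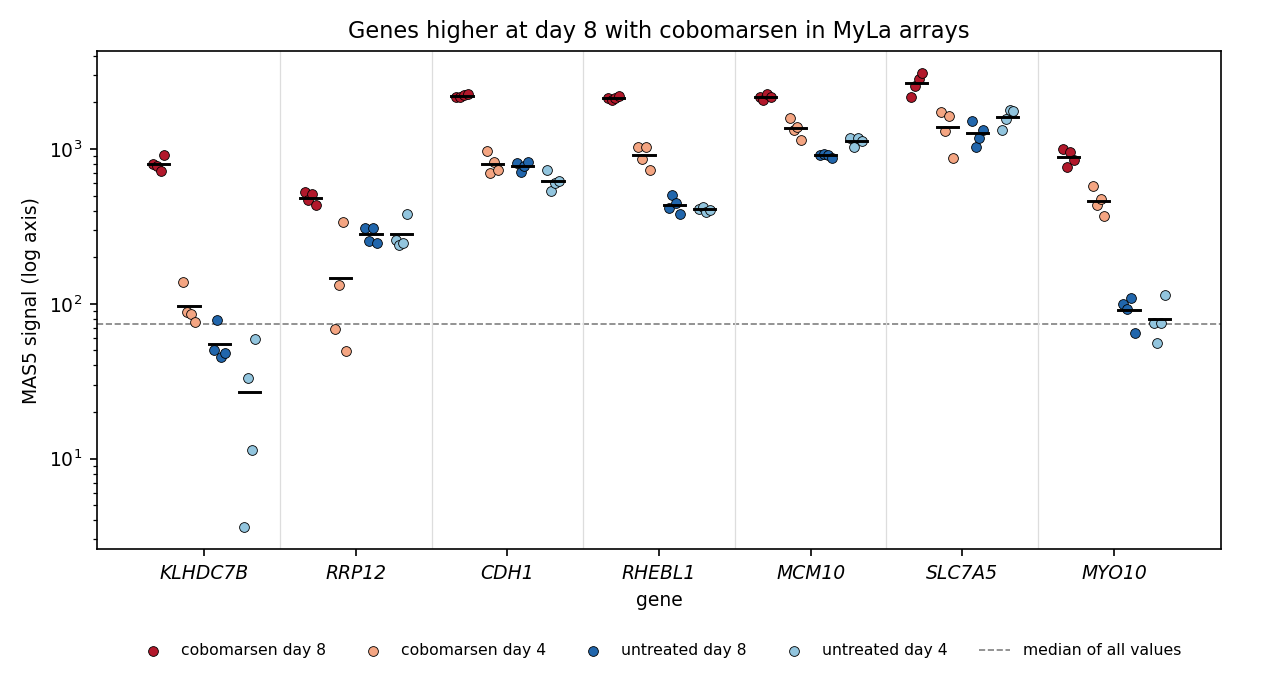
MAS5 signal (log axis) of 7 genes higher at day 8 with cobomarsen in each MyLa array, with bars for the mean of 4 arrays and a dashed line at the median of all values (74). In all 7 genes the 4 cobomarsen arrays at day 8 lie above the 4 at day 4, KLHDC7B at 716 to 913 against 76.5 to 138.

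Lipid synthesis genes differed between the arms. Of 24 cholesterol and fatty acid synthesis genes tested, 6 were lower and 2 higher at day 8 with cobomarsen. In untreated cells 2 were lower and 8 higher. Over all genes 13.2% were lower and 17.1% higher with cobomarsen, and 6.5% and 6.69% in untreated cells. SCD, which makes monounsaturated fatty acids, had 1424, 1385, 1395 and 1455 at day 8 and 2607, 4133, 3138 and 3144 at day 4 (log2 difference -1.17 ± 0.11, adjusted p = 8.04e-12). SCD had 4 probe sets tested, and 1 of them was called lower. The sterol demethylation enzyme MSMO1 averaged 2875 ± 157 at day 8 and 4624 ± 601 at day 4 with cobomarsen, against 7022 ± 590 and 5524 ± 210 in untreated cells (SD, n = 4 each). HMGCS1, an early enzyme of the pathway, averaged 678 ± 55.4 and 860 ± 41.7 with cobomarsen, against 1064 ± 89.8 and 782 ± 24 in untreated cells. Both were called lower with cobomarsen and higher in untreated cells. The gap was -1.02 ± 0.12 for MSMO1 (adjusted p = 1.94e-08), -0.77 ± 0.12 for HMGCS1 (adjusted p = 9.30e-06) and -0.89 ± 0.16 for SCD (adjusted p = 5.45e-05). Over the list it was called negative in 10 of 24 members, against 7.53% of all genes. The cholesterol carrier STARD4 was lower with cobomarsen (-0.63), and TM7SF2 (0.35) and SQLE (0.23), both of sterol synthesis, were higher.

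Chemokine, cytokine and antigen presentation genes were lower more often than higher. Of 18 cytokine and chemokine genes tested, 7 were lower and 1 higher at day 8 with cobomarsen. In untreated cells 3 of 20 were lower. Over all genes 13.2% were lower and 17.1% higher with cobomarsen, and 6.5% were lower in untreated cells. CCL22, a ligand of the skin-homing receptor CCR4, had 173, 161, 35.1 and 35.8 at day 8 and 581, 779, 688 and 458 at day 4, with no overlap (-2.70 ± 0.28, adjusted p = 1.57e-10). In untreated cells CCL22 averaged 287 ± 54.8 at day 8 and 624 ± 93.5 at day 4 (SD, n = 4 each) and was also lower (-1.09 ± 0.28), with a gap of -1.62 ± 0.40 (adjusted p = 0.00306). CCL17, the other CCR4 ligand, was lower in both arms, by a log2 difference of -1.44 with cobomarsen and of -0.95 in untreated cells.

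IL15, a growth cytokine of T and NK cells, had 2126, 2528, 2139 and 1750 at day 8 and 4231, 4744, 4696 and 5313 at day 4 (-1.15 ± 0.10, adjusted p = 2.36e-13). Untreated cells had 7415 ± 1134 at day 8 and 7312 ± 663 at day 4 (SD, n = 4 each), and the gap for IL15 was -1.16 ± 0.14 (adjusted p = 2.65e-08). IL6 (-1.35), LIF (-0.57) and the cytokine subunit EBI3 (-0.79) were lower with cobomarsen. Of 25 NF-kB target genes, 9 were lower and 3 higher with cobomarsen, and 6 lower and 2 higher in untreated cells. The shares over all genes were 13.2% and 17.1% with cobomarsen, and 6.5% and 6.69% in untreated cells. The feedback inhibitor TNFAIP3 was lower in both arms (-0.48 with cobomarsen, -0.40 untreated), and the receptor CD40 was lower with cobomarsen (-0.51).

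Of 20 antigen presentation genes, 9 were lower with cobomarsen and 2 in untreated cells, against 13.2% and 6.5% of all genes. HLA-DPB1, a chain of an MHC class II molecule, had 19810, 14650, 17120 and 19760 at day 8 and 24730, 27720, 25510 and 31350 at day 4 (-0.62 ± 0.09, adjusted p = 7.54e-07). The gap to untreated cells was -0.75 ± 0.13 (adjusted p = 4.66e-05). HLA-DQB2 (-1.76), HLA-DQB1 (-0.87) and the peptide-loading factor HLA-DMB (-0.58) were lower. Class II chains are related genes, and whether their probe sets read each other was not tested. Of 18 targets of the aryl hydrocarbon receptor and of NRF2, 6 were higher and 2 lower, against 17.1% and 13.2% of all genes. The higher ones included the glutathione synthesis gene GCLM (0.43), and in untreated cells 6 members were higher as well, against 6.69% of all genes. The lower ones were the receptor's targets CYP1A1 (-1.10) and CYP1A2 (-0.97). CYP1A1 averaged 124 ± 28.0 at day 8 and 284 ± 61.6 at day 4 with cobomarsen, against 1282 ± 196 and 994 ± 104 in untreated cells (SD, n = 4 each). Its gap was -1.46 ± 0.37 (adjusted p = 0.00424), and with log2(signal + 1) the adjusted p was 0.0635.

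The counts of the other lists are to be read against the shares over all genes, 17.1% higher and 13.2% lower with cobomarsen. In untreated cells the share of higher genes was 6.69%. Heat shock and chaperone genes were higher in 9 and lower in 2 of 16 members with cobomarsen and higher in 7 in untreated cells, and HSPE1, a mitochondrial chaperonin, had log2 differences of 0.43 and 0.27 in these arms. Lysosome and autophagy genes were higher in 9 of 24, among them the autophagy receptor SQSTM1 with 0.69 with cobomarsen and 0.73 in untreated cells. Oxidative phosphorylation genes were lower in 13 and higher in 2 of 36, and lower in 8 and higher in 3 after quantile normalization, with the complex III subunit UQCRC2 at -0.51. Interferon response genes were higher in 6 and lower in 2 of 17, with OASL, an antiviral protein, at 0.52. Cytokine receptors were higher in 7 and lower in 5 of 22, with the interferon receptor chain IFNAR1 at 0.56 and IL10RB at -0.61. RNA splicing factors were higher in 6 and lower in 1 of 23, with SRSF10 at 0.52. Adhesion and matrix genes were lower in 6 and higher in 2 of 25, with ICAM3 at -0.59 and the hyaluronan receptor CD44 at -0.54.

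In the lists that follow, the counts in both directions were small, and none is read as a departure from the shares over all genes. T helper and regulatory genes were lower in 4 and higher in 2 of 18, with GATA3, the master factor of type 2 helper cells, at -0.45 and IKZF3 at 0.61. The groups of IKZF3 overlapped, and 1 of its 3 probe sets tested was called higher. JAK-STAT and cytokine feedback genes were lower in 5 and higher in 4 of 24, with the feedback inhibitors CISH at -0.46 and SOCS3 at 0.65, which missed the threshold with log2(signal + 1) (adjusted p = 0.100). ERK feedback genes were lower in 4 and higher in 3 of 15, with IER3 at -0.91, SPRY1 at -0.93 and the phosphatase DUSP5 at 0.69. PI3K pathway genes were higher in 4 and lower in 3 of 18. The T cell receptor list had 3 lower and 1 higher of 14, the BCL2 family 3 lower and 1 higher of 11, with the pro-apoptotic BAK1 at 0.59, and cytotoxic granule genes 1 in each direction of 7.

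**Figure D5:**
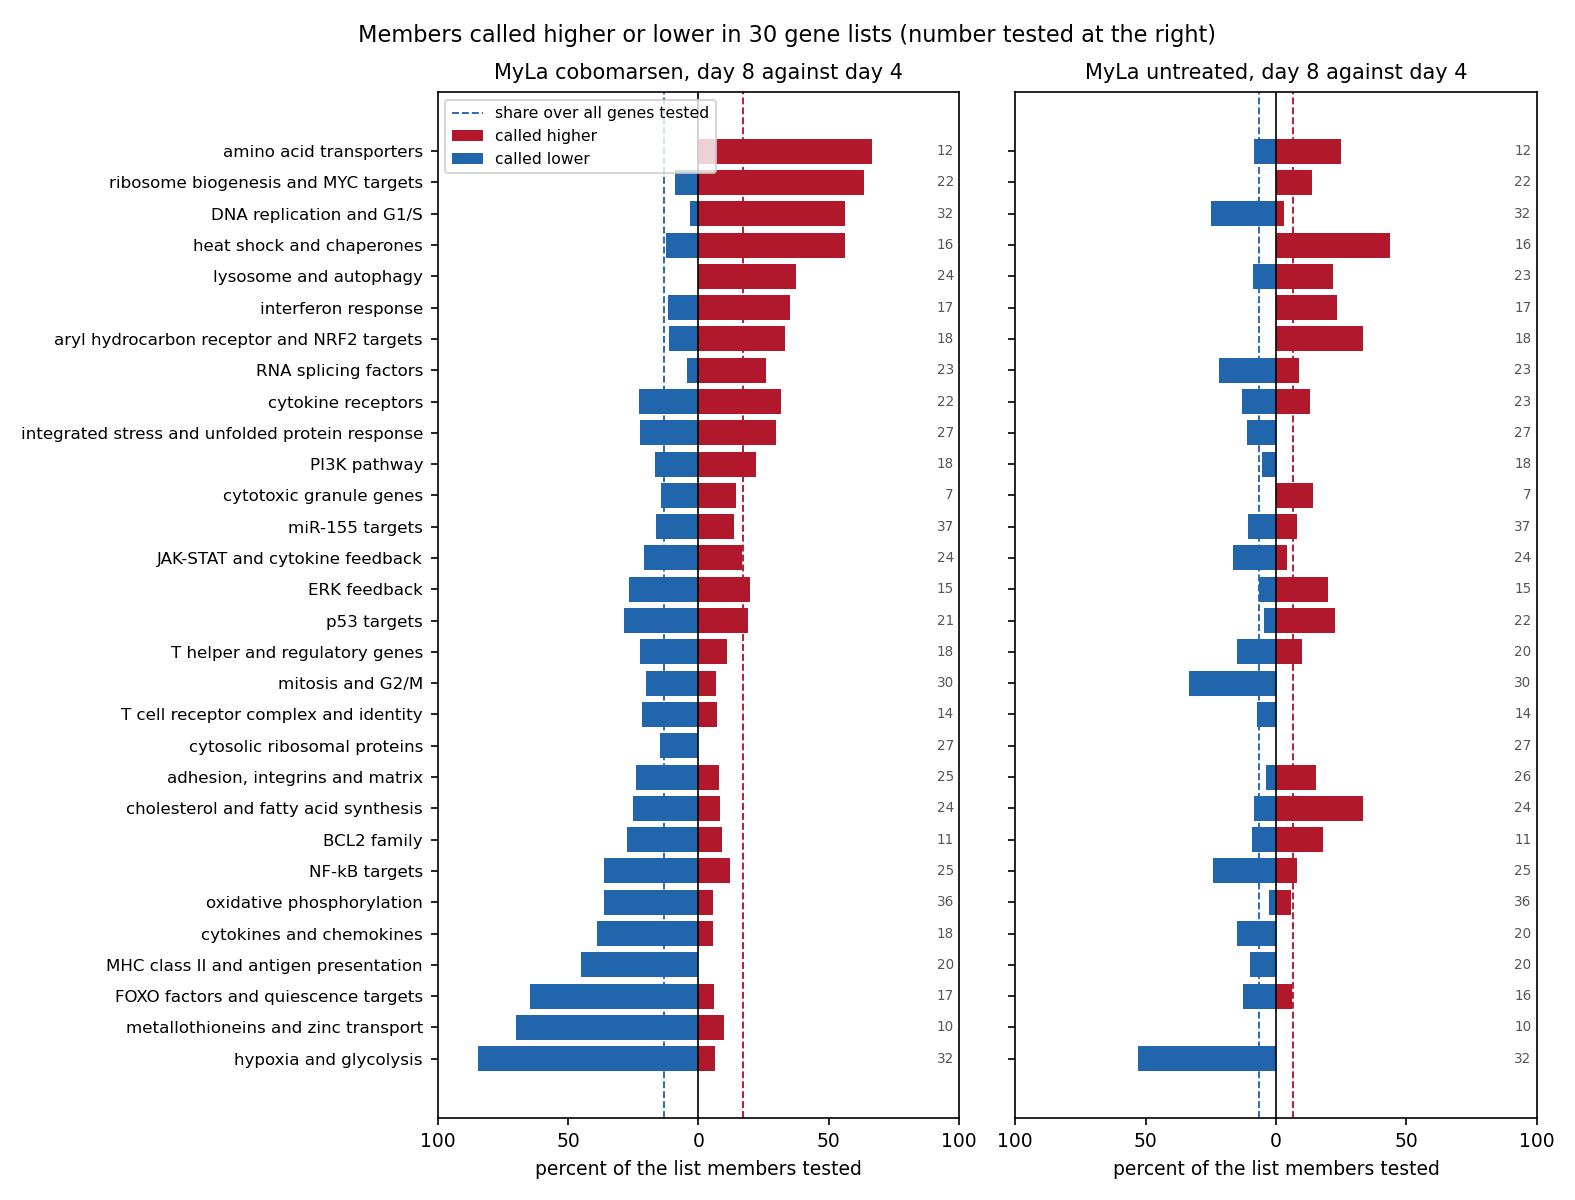
Percent of the tested members of 30 gene lists called higher (right) or lower (left) at day 8 against day 4, with cobomarsen (left panel) and in untreated cells (right panel). Dashed lines give the share over all genes tested, and the number of members tested stands at the right edge. The hypoxia list is mostly lower in both panels, with 27 of 32 members with cobomarsen and 17 of 32 in untreated cells, while the DNA replication list is mostly higher with cobomarsen.

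Other large rises were in genes outside the lists. KLHDC7B, a kelch domain gene, had 806, 771, 716 and 913 at day 8 and 138, 88.9, 85.9 and 76.5 at day 4 with cobomarsen (log2 difference 2.87 ± 0.27, fold 7.33, adjusted p = 1.04e-11). In untreated cells KLHDC7B stayed below the median signal, at 55.3 ± 15.3 at day 8 and 26.8 ± 24.9 at day 4 (SD, n = 4 each). CDH1, the epithelial adhesion molecule E-cadherin, had 2157 to 2272 in the arrays at day 8 and 702 to 968 in those at day 4 (1.45 ± 0.28, adjusted p = 7.16e-05). Untreated cells had a CDH1 signal of 779 ± 47.9 at day 8 and 623 ± 84.6 at day 4 (SD, n = 4 each), with a gap of 1.12 ± 0.40 (adjusted p = 0.0427) that missed the threshold with log2(signal + 1) (adjusted p = 0.353) and when any of 13 of the 16 arrays was left out. The other 4 epithelial markers on the array, KRT5, KRT14, KRT1 and EPCAM, averaged under 50 in every MyLa group, so the summed epithelial signal of 2211 to 2320 at day 8 and 779 to 1060 at day 4 was nearly all CDH1.

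RHEBL1, a small GTPase related to the mTORC1 activator RHEB, had 2133, 2069, 2125 and 2208 at day 8 and 1037, 856, 1037 and 733 at day 4 (1.22 ± 0.13, adjusted p = 1.57e-10), against 436 ± 53.8 at day 8 and 407 ± 13.3 at day 4 in untreated cells (SD, n = 4 each). The gap was 1.13 ± 0.18 (adjusted p = 1.06e-05). ZNF324, a zinc finger gene, averaged 389 ± 46.4 at day 8 and 120 ± 114 at day 4, and HES6, a transcriptional cofactor of neural cells, averaged 363 ± 53.7 and 117 ± 79.9. APOL6, an interferon-induced apolipoprotein L gene (1.30), and TMEM165, a Golgi ion transporter (1.19), were higher as well. TNFSF14, the T cell ligand LIGHT, averaged 184 at day 8 and 72.6 at day 4.

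Large falls outside the lists included RIPOR2, an inhibitor of RhoA, at 149 ± 19.4 at day 8 and 701 ± 122 at day 4 (log2 difference -2.11). RIPOR2 was also lower in untreated cells (-0.89). ADIRF, an adipogenesis gene, averaged 127 ± 15.9 and 579 ± 136 (-2.03), while untreated cells had 622 and 600. UPK1A, a uroplakin, averaged 88.3 ± 55.5 and 368 ± 140 (-2.02). KCND2, a voltage-gated potassium channel subunit, had 900, 802, 826 and 882 at day 8 and 1924, 1830, 2175 and 2338 at day 4 (-1.26 ± 0.21, adjusted p = 6.55e-06), against 1812 ± 266 and 1256 ± 97.9 in untreated cells on the same days. The gap for KCND2 was -1.77 ± 0.30 (adjusted p = 2.88e-05).

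The day difference of MyLa cells with cobomarsen also differed from that of the other lines with cobomarsen. Against HuT102, 1677 of 11649 genes (14.4%) had a more positive day difference in MyLa and 1477 (12.7%) a more negative one, while with arrays centred on the median the counts were 1474 more positive and 1494 more negative. Against MJ, the counts were 1414 (12.1%) and 1051 (8.97%) of 11719 genes. Both comparisons use the same MyLa arrays, so they are not independent of each other. The hypoxia list was more negative in MyLa in 19 of 33 members against HuT102 and in 19 of 32 against MJ. HILPDA, at 1172 ± 78.8 at day 8 and 12450 ± 5145 at day 4 in MyLa, averaged 1111 ± 103 at day 8 and 878 ± 24.2 at day 4 in HuT102, and 9341 ± 768 and 12240 ± 1514 in MJ (SD, n = 4 each). The MyLa day difference minus that of HuT102 was -3.62 ± 0.30 (adjusted p = 4.67e-13), and minus that of MJ it was -2.90 ± 0.30 (adjusted p = 5.01e-10). For BNIP3 these values were -2.58 ± 0.28 (adjusted p = 6.85e-10) and -2.68 ± 0.28 (adjusted p = 8.33e-10).

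DNA replication genes were more positive in MyLa in 27 of 32 members against HuT102 and in 25 of 32 against MJ. Over all genes 14.4% and 12.1% were more positive, and 12.7% and 8.97% more negative, in the same order of lines. MCM7 averaged 4246 ± 620 at day 8 and 5336 ± 549 at day 4 in HuT102, and 5013 ± 348 and 6521 ± 572 in MJ (SD, n = 4 each), with gaps of 0.86 ± 0.13 (adjusted p = 8.69e-07) and 0.90 ± 0.13 (adjusted p = 8.69e-07). Metallothioneins were more negative in 6 and more positive in 1 of 10 members against HuT102, and more negative in 7 of 10 against MJ. MT2A averaged 9819 ± 1475 at day 8 and 10760 ± 849 at day 4 in HuT102 and 28190 ± 1479 and 34770 ± 2919 in MJ, with gaps of -1.13 ± 0.12 (adjusted p = 2.22e-10) and -0.97 ± 0.12 (adjusted p = 3.29e-08). CCL22 averaged 101 ± 76.1 at day 8 and 626 ± 139 at day 4 in MyLa, 11850 ± 2268 and 6570 ± 1264 in HuT102, and 790 ± 166 and 576 ± 46.6 in MJ. Its gaps were -3.55 ± 0.40 against HuT102 (adjusted p = 1.14e-09) and -3.13 ± 0.40 against MJ (adjusted p = 8.14e-08). FOXO genes were more negative in MyLa in 11 of 17 against HuT102 and in 12 of 18 against MJ, where 3 were more positive, and ribosome biogenesis genes more positive in 18 of 22 and in 10 of 22. KLHDC7B averaged 55.3 ± 12.4 and 50.5 ± 22.8 in HuT102, below the median signal, and 255 ± 25.3 and 349 ± 26.7 in MJ.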

How the data were processed

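The deposited table holds MAS5 signals (a linear intensity) of 54675 probe sets, computed by the authors with MAS5, per the submitters' processing notes. Each array had a 2% trimmed mean near 500.0. Symbols came from GEO's platform annotation: 41091 probe sets had 1 symbol, 1801 several and 11721 none, and 62 were controls. The 19775 genes were each read from 1 probe set, that of highest mean log2 signal in the 56 arrays. Genes entered a test if the arrays compared averaged at least the median of all values. Means of 14 groups were fitted with limma 3.58.1 (R 4.3.3) in 1 model with an intensity trend, and tests were two-sided. The steps were tested on simulated data. Alternatives were other added values, filters, scalings, probe sets and sets of arrays, and leaving out each array. The arrays' number limits precision.

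The members and the 30 lists were chosen with earlier results of these data known. A rule set the genes that could be named: the 15 largest rises and the 15 largest falls among called genes with groups that did not overlap, up to 5 called members of each list, all miR-155 list members, and the 10 (arms) or 5 (lines) largest differences in each direction. The genes picked from those allowed, and those said to lie outside the rule, were chosen with values in view. No fold is printed where a group mean lay under that median.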

Additional observations from a re-analysis of the deposited data

Results flagged for a closer look

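A single array stood far from the other 3 of its group in 8 of 282 groups of 4 arrays looked at, fewer than chance alone would give on average at the level used (Dixon's ratio above its 95% critical value, which chance passes in about 1 in 20 groups). With cobomarsen at day 8, RPL22 had 18740 on array 1 against 20800 to 20940 on the others. With cobomarsen at day 4, FAS had 11840 on array 3 against 13260 to 13380, FOXM1 had 904 on array 4 against 1309 to 1372, HES6 had 236 on array 3 against 66.0 to 88.4, and TNFSF14 had 28.2 on array 4 against 82.1 to 92.3. In untreated cells at day 8, MT2A had 10250 on array 1 against 13190 to 13530, and SCD had 3035 on array 3 against 3509 to 3569. In untreated cells at day 4, RRP12 had 378 on array 4 against 241 to 259.

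The day difference with cobomarsen was below that in untreated cells (limma, log2 scale, adjusted p under 0.05) for HILPDA (-2.71), PFKFB4 (-2.30), MT1H (-2.20), MT1X (-1.85), KCND2 (-1.77), CCL22 (-1.62), BNIP3 (-1.61), CYP1A1 (-1.46), MT2A (-1.38), IL15 (-1.16), MSMO1 (-1.02), SCD (-0.89), HMGCS1 (-0.77), CCNG2 (-0.76), HLA-DPB1 (-0.75) and TP53INP1 (-0.64). It was above that in untreated cells for RRP12 (1.93), FOXO1 (1.38), SLC7A5 (1.31), RHEBL1 (1.13), CDH1 (1.12), MCM10 (0.98), MCM7 (0.76), MYO10 (0.75), MYB (0.68) and CDC6 (0.60).

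Against HuT102 with cobomarsen, the MyLa day difference was lower for HILPDA (-3.62), CCL22 (-3.55), BNIP3 (-2.58) and MT2A (-1.13) and higher for MCM7 (0.86). Against MJ with cobomarsen, it was lower for CCL22 (-3.13), HILPDA (-2.90), BNIP3 (-2.68) and MT2A (-0.97) and higher for MCM7 (0.90).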

How the results depend on the processing

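Counts of called genes stayed within 1.5 times of the reported ones under most alternatives. With every probe set on its own, where more features are tested, 5888 probe sets were called with cobomarsen, 3088 for the difference between the arms, 5346 against HuT102 and 4086 against MJ. Leaving out 1 array gave 2727 to 3354 genes with cobomarsen, 832 to 1684 in untreated cells (832 without MyLa untreated day 8 replicate 3 and 963 without replicate 4), 1385 to 2117 between the arms, 2746 to 3169 against HuT102 and 2012 to 2520 against MJ. Of 120 named or considered genes called with cobomarsen, 98 kept their call and direction under every alternative that tested them, and 22 lost the call under at least 1. For the difference between the arms this held for 21 of the 26 genes checked, with CCNG2, CDC6, CDH1, CYP1A1 and MYO10 losing the call under at least 1 alternative. For each other line it held for 5 of 5. The causes were not tested. The host transcript differed by -1330, by -1701 to -850 when 1 array was left out, and by 1131 after quantile normalization (exact permutation p = 0.343). No paired analysis was possible because the labels give no replicate numbers. Genes near background were not tested, so their changes were not detectable here.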
